A study of Drosophila melanogaster
Mus musculus with 6 samples.

Results

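The X inactivation centre was described here as the 4 Mb of the mouse X chromosome from 98700001 to 102700000 (build mm9, 1-based), a window centred near Xist, which lies at about 100.66 Mb. Its members were the 388 intervals of 10 kb (bins) that start in this window, of 249267 such intervals in the whole table, and they were compared with the 15151 bins with signal on the rest of X. The bins were chosen by position alone. Histone marks had been mapped by chromatin immunoprecipitation and sequencing in C3H10T1/2 cells, a line of mesenchymal progenitors from C3H mouse embryos, at passage 10 to 15. The WT cells stably expressed wild-type H3.1 with a FLAG-HA tag, and the K36M cells expressed tagged H3.1 in which lysine 36 was replaced by methionine, so both carried a tagged transgene. The labels mention no change to the cells' own histone genes and do not say whether a line was a clone or a pool. One library each was available for H3K36me2 and H3K27me3 in WT and in K36M, 4 libraries in all, with chromatin of Drosophila S2 cells added as an external reference.

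Xist is the long noncoding RNA that coats the X chromosome from which it is transcribed and starts its silencing in female cells. It is transcribed toward the centromere, so its 5′ side faces the higher coordinates. Tsix, its antisense repressor, is transcribed across it, and Jpx and Ftx, noncoding RNA genes known to favour Xist expression in mouse cells, lie on its 5′ side. H3K27me3, deposited by Polycomb repressive complex 2, accumulates over the silenced X. H3K36me2, deposited mainly by the NSD family of methyltransferases, hinders that complex on the same histone tail, and K36M histone inhibits H3K36 methyltransferases. Apart from Xist, no gene was placed on bins, because no mouse gene annotation of this build was used here. The labels give neither the sex of the cells nor the number of X chromosomes, and the table does not split reads by allele. A value is therefore a sum over all copies of X in all cells, and fewer marked copies or cells cannot be told apart from less mark on each copy.

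Values are given as scaled reads per bin, whole reads times a factor that is the same for all bins of a library. The reads behind all bins numbered 57939301 (WT) and 50022100 (K36M) for H3K36me2, and 31330422 (WT) and 29115433 (K36M) for H3K27me3. The median bin of the window held 140.5, 93.0, 370.0 and 225.0 reads in the same order, and every bin of the window had at least 11 reads in each library. With 1 library per group there is no replicate error and no test between WT and K36M, and intervals are 95% intervals for counting error only, which take reads as independent molecules.

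The window was rich in H3K27me3 in both lines. In WT its median was 40.3 scaled reads per bin (interquartile range 30.6 to 53.0), against 16.5 (6.98 to 28.8) on the rest of X and 5.67 on the autosomes. In K36M it was 66.4 (52.1 to 82.6), against 40.1 (21.2 to 59.7) on the rest of X. The ratio of means, window over rest of X, was 2.13 (2.11 to 2.14) in WT and 1.63 (1.62 to 1.64) in K36M. Of the 388 bins, 305 (78.6%) reached the 75th percentile of the rest of X in WT and 244 (62.9%) did in K36M. These ratios compare bins within 1 library, so the library factors do not enter them.

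H3K36me2 in the window was also above the rest of X. Against the autosomes it was lower in WT, while in K36M its median was higher and its mean slightly lower. In WT its median was 89.4 scaled reads per bin (46.4 to 146), against 37.5 (25.4 to 110) on the rest of X and 103 on the autosomes. In K36M the median was 7.25 (5.62 to 14.3), against 5.23 (4.06 to 6.71) and 6.24. The ratio of means, window over rest of X, was 1.37 (1.36 to 1.38) in WT and 1.72 (1.71 to 1.74) in K36M, whereas the same ratio against the autosomes was 0.662 and 0.964. Unlike much of X, the window held few bins of low H3K36me2 in WT: 8 of its 388 bins (2.06%) lay at or below the 25th percentile of the rest of X.

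**Figure D1:**
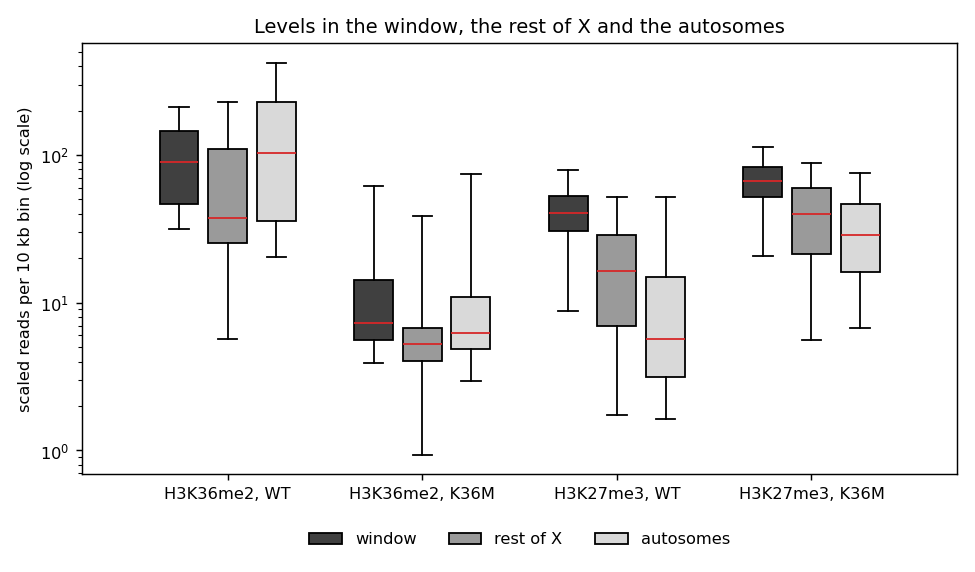
Scaled reads per 10 kb bin (log axis) for each of the 4 libraries in the window, the rest of X and the autosomes; red lines are medians, boxes the interquartile range and whiskers the 5th to 95th percentiles. In WT the lower edge of the window's H3K27me3 box, at 30.6, lies above the upper edge of the box for the rest of X, at 28.8.

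X was then divided into stretches of 4 Mb on the same grid as the window, to give the spread along the chromosome. Among the 41 stretches with at least 200 bins, the window had the highest median H3K27me3 in WT (40.3, others 0.382 to 37.9) and ranked 3 in K36M (66.4, others 1.48 to 76.3). By mean it was the second highest in WT, at 42.9 against a highest of 43.1. Its lead over the next stretch was thus small. For H3K36me2 the window ranked 10 by median in WT, at 89.4 among others from 1.27 to 196, and 1 in K36M, at 7.25 among others up to 6.94. By mean it ranked 13 in WT and 5 in K36M, at 15.6 against a highest of 17.4. The H3K27me3 ratio of means, K36M over WT, was the second lowest, at 1.607 against 1.606 in the lowest stretch, and the others reached 3.69. The H3K36me2 ratio was near the middle, at 0.153 with others from 0.0682 to 0.246. The stretches are a description of X in these libraries and are not replicates.

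**Figure D2:**
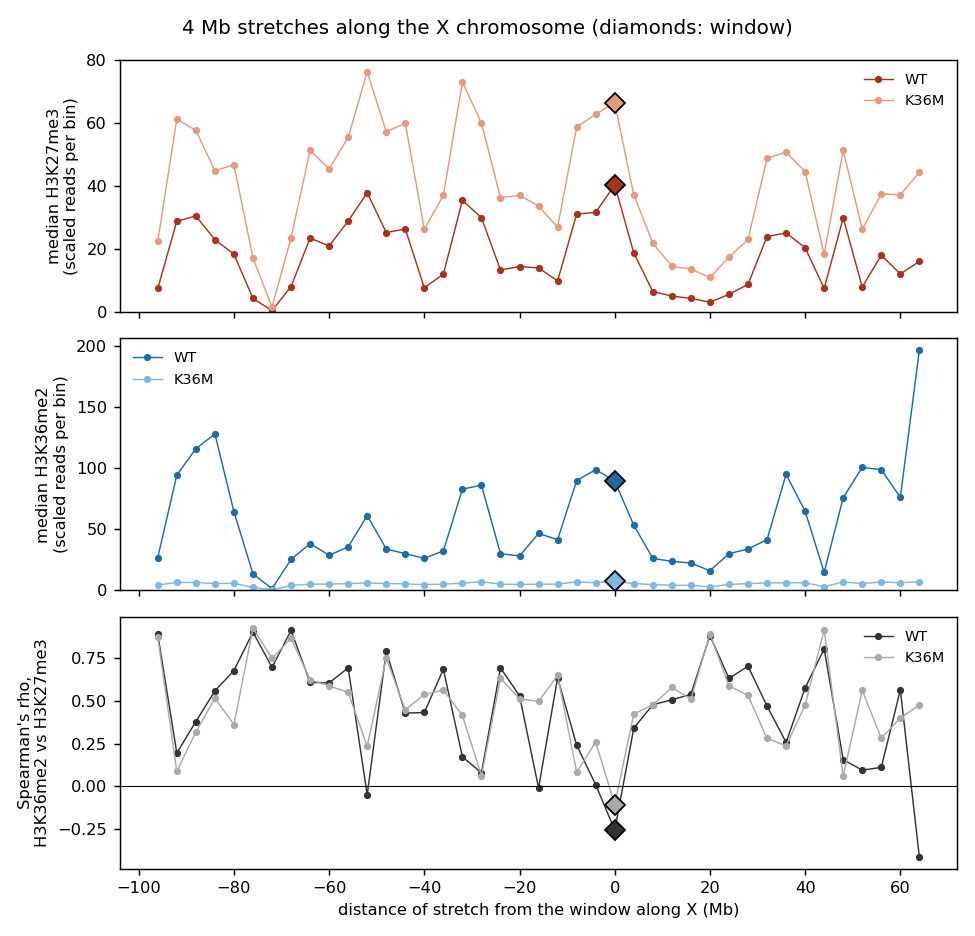
Median H3K27me3, median H3K36me2 and Spearman's rho between both marks across bins, for stretches of 4 Mb along X in WT and K36M, plotted by distance from the window; diamonds mark the window. Its diamond is the highest WT point for H3K27me3 (40.3) and, for rho, the lowest K36M point (-0.11).

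In K36M, H3K36me2 fell throughout most of the window and H3K27me3 rose moderately, on the deposited scale. Mean H3K36me2 went from 102 scaled reads per bin in WT to 15.6 in K36M, 6.53-fold lower (6.46 to 6.60), while the rest of X was 8.19-fold lower (8.17 to 8.21). Mean H3K27me3 went from 42.9 to 69.0, a ratio of 1.61 (1.59 to 1.62). On the rest of X it went from 20.2 to 42.4, a ratio of 2.10 (2.097 to 2.104). Against the rest of X, the window thus kept more of its mean H3K36me2 and gained proportionally less H3K27me3, by more than counting error. In scaled reads, its rise in mean H3K27me3 was not smaller than that of the rest of X. The direction of both changes against WT rests on the library factors: scaled to library totals, the ratios in the window became 1.45 for H3K36me2 and 0.639 for H3K27me3, and those on the rest of X 1.15 and 0.835.

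The typical bin and the mean differed for H3K36me2. The median log2 ratio, K36M over WT after adding a pseudocount of 19.7, was -1.62 in the window (interquartile range -2.40 to -1.20) and -1.12 on the rest of X, so the typical bin of the window fell further although its mean fell less. On the rest of X, 6927 of 15151 bins were below the level filter described next, where the pseudocount limits a fall. Window bins were also split by WT H3K36me2 into 4 groups and set against rest-of-X bins between the same limits. In the lowest group the median log2 ratio was -1.17 in the window and -0.96 on the rest of X. The ratio of means in that group, without a pseudocount, was 0.181 and 0.172, so the order depended on the measure. In groups 2 to 4 the window fell less by the median log2 ratio, at -1.48 against -1.60, -2.16 against -2.24 and -2.79 against -2.94. This split used the denominator of the ratio. For H3K27me3, with a pseudocount of 1.64, the median log2 ratio was 0.66 (0.45 to 0.94) in the window and 1.12 on the rest of X, a difference of -0.46. For H3K36me2, scaling to library totals moved the median log2 ratio of all bins from -1.62 to 0.04. For H3K27me3 it moved from 1.60 to 0.46. On that scale the window minus the rest of X was -0.14 for H3K36me2 and -0.55 for H3K27me3, so both differences kept their sign.

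A bin passed a rule of size when it changed at least 2-fold on the log2(value + pseudocount) scale and the average of its WT and K36M levels reached the 25th percentile of all bins. For H3K27me3, 74 of the 378 window bins that passed the filter (19.6%) were higher in K36M, well under the background of 61.6% on the rest of X and 70.1% over all bins. None was lower, where the background was 0.0157% on the rest of X and 0.161% over all bins. The share of risen bins was smaller in the window than on the rest of X under each of the 6 alternative settings of the rule: with a 1.5-fold rule the shares were 59.8% in the window and 87.3% on the rest of X, with the median as pseudocount 12.7% and 46.4%, and with library totals, where few bins rose at all, 1.33% and 1.99%. For H3K36me2, 310 of 354 bins (87.6%) were lower, close to the background of 90.8% on the rest of X and 89.8% over all bins. None was higher, against 0% and 0.0177%. With library totals the share of lower bins was 13.7% in the window and 26.2% on the rest of X, so the closeness depended on the setting. Both changes met in 64 of the 344 bins that passed the filter for both marks (18.6%), with lower H3K36me2 and higher H3K27me3, against 48.6% on the rest of X and 64.3% over all bins. H3K36me2 was lower with H3K27me3 past neither threshold in 245 of them (71.2%), against 42.4% and 33.9%.

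The rise of H3K27me3 was also compared between bins of the same range of WT H3K27me3. Window bins were split by WT H3K27me3 into 4 groups of about equal size, and bins of the rest of X were taken between the same limits. In group 1, the lowest (1.20 to 30.6 scaled reads in WT), the median log2 ratio was 0.96 in the window and 1.24 on the rest of X, and in group 2 (up to 40.3) it was 0.84 and 0.93. In group 3 (up to 53.0) it was 0.63 and 0.70, and in group 4 (up to 201) it was 0.49 and 0.40. Interquartile ranges overlapped in all 4 groups, and in group 4 the order of the medians turned. By the rule of size, the share of higher bins in groups 1 to 4 was 39.1%, 27.8%, 13.5% and 0% in the window, and 74.6%, 40.5%, 14.2% and 2.08% on the rest of X. The ratio was split by its own denominator, which fixes part of its fall from group 1 to group 4. The bins of the rest of X were not spread like those of the window within group 1, where their median WT level was 12.6 against 24.6. Split instead by WT H3K36me2, the window rose less in each group, from 0.45 against 1.24 in the lowest to 1.01 against 1.20 in the highest, but it also started higher in WT H3K27me3 in each, at 44.0 against 11.3 and at 35.6 against 25.8.

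**Figure D3:**
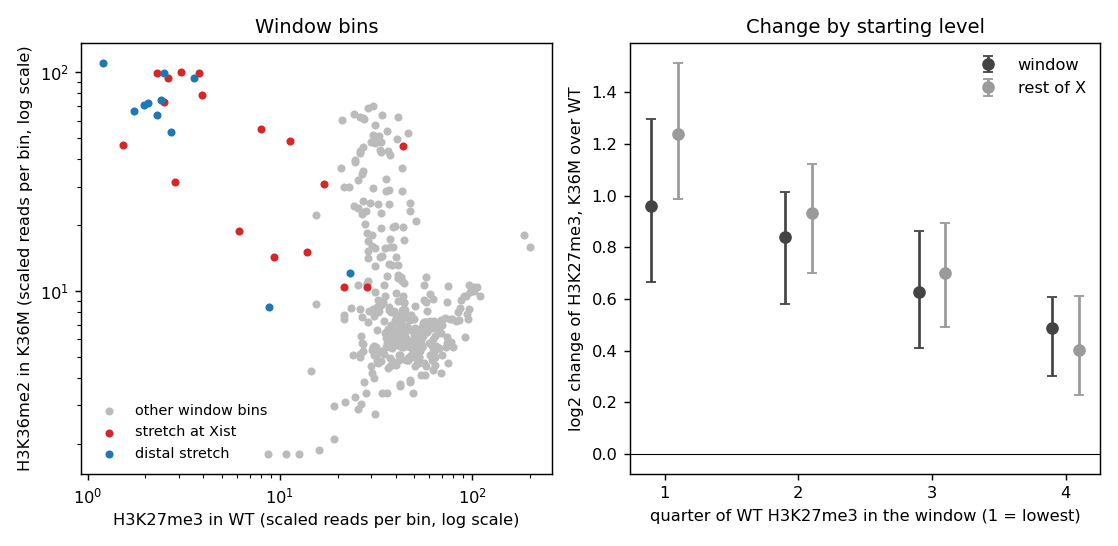
Left, H3K36me2 in K36M against H3K27me3 in WT for the 388 bins (scaled reads, log axes), with the stretch at Xist and the stretch distal to it in colour. Right, median log2 change of H3K27me3 with interquartile range, by group of WT H3K27me3, in the window and in bins of the rest of X between the same limits; the medians fall from 0.96 to 0.49 in the window and from 1.24 to 0.40 on the rest of X.

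Along the window, both marks formed domains, counted as runs of at least 5 adjacent bins that each reached the 75th percentile of the rest of X. They numbered 24 for H3K27me3 in WT, 14 for H3K27me3 in K36M, 12 for H3K36me2 in WT and 14 for H3K36me2 in K36M. For H3K36me2 in K36M the threshold was low, at 6.71 scaled reads per bin. The medians of that library were 5.23 on the rest of X and 6.24 on the autosomes. The longest for H3K27me3 in WT spanned 390 kb, from 99930001 to 100320000, on the centromeric side of Xist. Its mean H3K27me3 was 72.4 scaled reads per bin in WT and 113 in K36M, and its H3K36me2 was 47.3 in WT and 7.41 in K36M. In K36M the longest run lay almost in the same place, from 99990001 to 100310000. The next longest in WT, from 100450001 to 100650000, ended where the stretch at Xist began; it held 47.4 in WT and 76.3 in K36M, with H3K36me2 at 133 and 10.8. Runs 3 and 4 by length, each of 180 kb, started at 99130001 and at 101180001 and went from 43.1 to 85.1 and from 45.9 to 73.4. In K36M the other long runs were those of 250 kb from 99420001, at 78.1, of 180 kb from 99130001, at 85.1, and of 140 kb from 98930001, at 86.3.

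H3K36me2 and H3K27me3 domains of WT overlapped in part. The longest run of H3K36me2 in WT, from 99470001 to 99660000, had a mean of 153 and H3K27me3 of 37.7, and in K36M it went to 16.9 and 79.2. The second, from 99090001 to 99260000, fell more steeply, from 183 to 7.35, 0.0402 of WT, while its H3K27me3 went from 43.2 to 87.3. Runs 3 and 4 by length lay at and beside Xist, from 100650001 to 100800000 and from 100810001 to 100910000, with means of 186 and 176 in WT and 48.4 and 12.8 in K36M. Where a domain carried both marks in WT, the values do not tell whether they sat on the same copy of X. The lowest H3K36me2 log2 ratios of single bins, with the pseudocount added, were at 101660001 to 101670000, from 305 to 8.27 (36.9-fold), at 101640001 to 101650000, from 291 to 7.02 (41.4-fold), and at 101610001 to 101620000, from 276 to 8.42 (32.8-fold). H3K27me3 in these bins went from 26.1 to 75.8, from 37.7 to 104 and from 37.0 to 96.5.

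**Figure D4:**
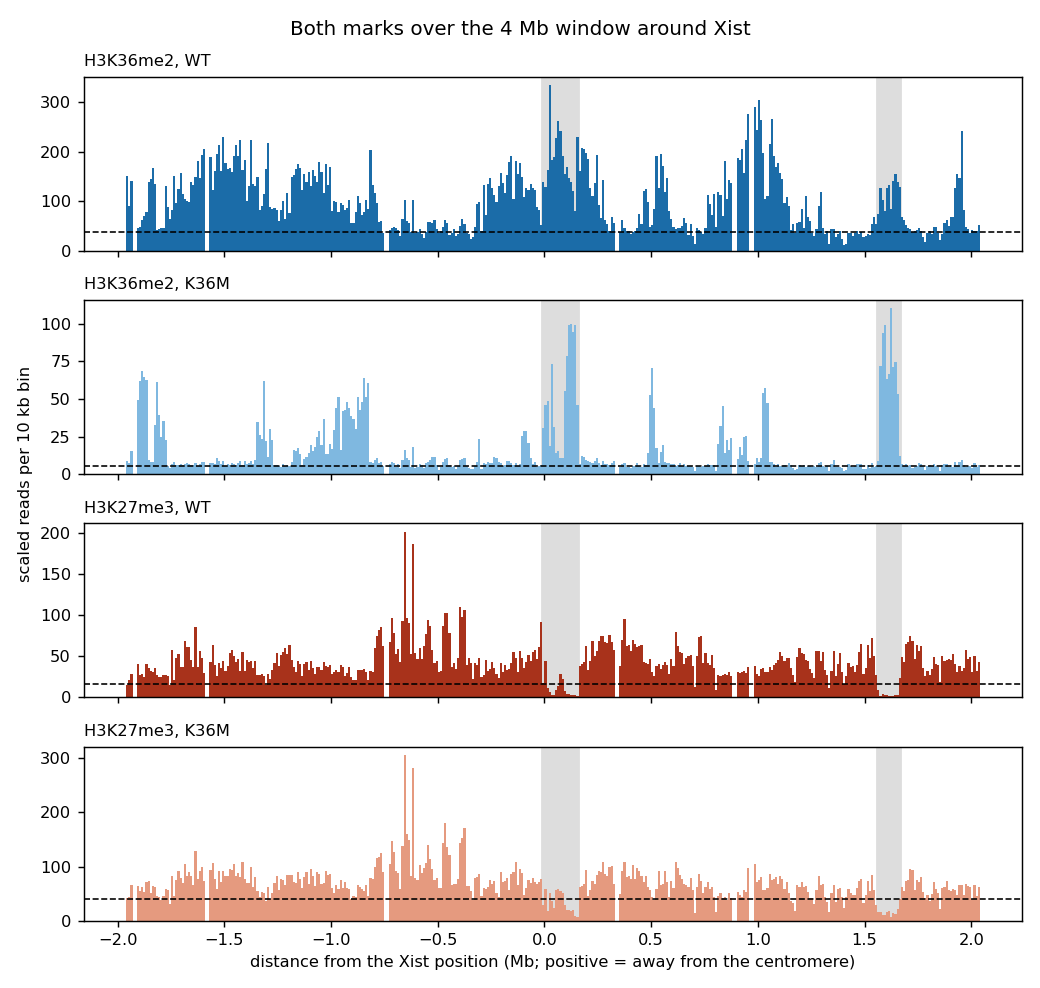
Scaled reads per 10 kb bin for the 4 libraries across the window, by distance from the Xist position in Mb; dashed lines are the medians of the rest of X and grey bands the stretch at Xist and the distal stretch. Gaps are wider intervals that were left out. H3K27me3 lies above the dashed line over most of the window (median 40.3 against 16.5 in WT) and drops in both grey bands, where H3K36me2 in K36M reaches 99.8 and 110 scaled reads per bin.

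Consecutive segments of 200 kb showed how far the window varied. Median H3K27me3 in WT ran from 17.8 in the segment from 100700001, just distal to Xist, to 67.3 in the segment from 100100001. Median H3K36me2 in WT ran from 36.9 in the segment from 101900001 to 193 in the segment from 101500001. The ratio of K36M over WT ran from 0.0420 in the segment from 99100001 to 0.484 in the segment from 102100001 for H3K36me2, and from 1.33 to 2.09 for H3K27me3. In the 6 segments nearest the centromere the H3K27me3 ratio was 1.65 to 2.09, and in the 9 farthest from it 1.33 to 1.95, so the ranges overlapped.

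Xist sat near the centromeric edge of a gap in H3K27me3. From 100650001 to 100820000, 170 kb, H3K27me3 in WT had a median of 6.10 scaled reads per bin, against 49.3 in the 100 kb on the centromeric side and 47.0 in the 100 kb on the distal side. The same 17 bins formed the second longest run of H3K36me2 in K36M, with a median of 46.3 against 9.52 and 8.58 on the flanks. The limits were set by H3K27me3 in WT, outward from the Xist bin while bins stayed below the 75th percentile of the rest of X, 28.8. The Xist bin itself was kept whatever its level. The run of H3K36me2 in K36M had the same limits. The stretch was chosen after its values were seen, so its H3K27me3 in WT and its H3K36me2 in K36M are given as a description. The other libraries were not used to choose it. H3K36me2 in WT had a median of 169, against 123 and 174 on the flanks, and a mean of 183, against 112 and 162, so its place against the distal flank depended on the measure. H3K27me3 in K36M had a median of 28.3, against 71.5 and 68.1, so the gap was present in both lines. The drop from the flanks was of like size in scaled reads in both lines and smaller in K36M only as a ratio, which sets it against the WT values that chose the stretch.

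Bin by bin, the centromeric edge of the gap was sharp. The bin at 100640001 to 100650000, next to it, had H3K27me3 of 92.0 in WT and 76.1 in K36M, and H3K36me2 of 51.5 and 6.16. It had the lowest H3K27me3 log2 ratio of the window (-0.27) and was 1 of 3 bins in which H3K27me3 in K36M was below WT. Those 3 bins were 0.773% of the window, a smaller share than the 1.62% on the rest of X and 5.27% over all bins. The next bin, at 100650001 to 100660000, dropped to 17.0 in WT and 28.3 in K36M, with H3K36me2 at 138 and 30.8. The change between these adjacent bins was beyond counting error in WT, at 844 and 156 reads. The bin that holds the stated Xist position, at 100660001 to 100670000, went back to 43.6 and 57.5, with H3K36me2 at 130 and 45.9. It was the only bin of the gap above 30 scaled reads of H3K27me3 in WT.

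On the 5′ side of Xist the gap deepened. The bin at 100680001 to 100690000 had the highest H3K36me2 of the window in WT, 335 scaled reads (526 reads), and kept 18.8 in K36M. Its H3K27me3 went from 6.10 to 51.3. The next bin, at 100690001 to 100700000, had the largest H3K27me3 log2 ratio of the window, 3.16, from 2.51 (23 reads) to 35.4 (120 reads), 14.1-fold (9.07 to 22.0), and its H3K36me2 went from 184 to 73.4. Ratios from so few WT reads are wide, and low WT values favour a large ratio. H3K27me3 in WT came up again to 28.3 at 100730001 to 100740000 and fell to 1.53 at 100810001 to 100820000, the second lowest of the window.

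The distal end of the gap kept the most H3K36me2 in K36M. Over the bins from 100760001 to 100820000, the mean was 148 in WT and 86.2 in K36M, and H3K27me3 went from 2.87 to 15.7, below the K36M 25th percentile of the rest of X, 21.2. The bin at 100800001 to 100810000 had more H3K36me2 in K36M than in WT, 99.0 against 81.4. At 100780001 to 100790000 H3K36me2 went from 140 to 99.8, the second highest K36M value of the window. By contrast, the next bin beyond the gap, at 100820001 to 100830000, held 162 in WT and 6.40 in K36M, with H3K27me3 back at 38.5 and 62.5. The last bin of the gap, at 100810001 to 100820000, held H3K36me2 of 231 in WT and 46.3 in K36M. The WT level beyond the edge thus lay within the range of the gap bins from 100760001, 81.4 to 231. The K36M level beyond the edge was far below the range of those bins, 46.3 to 99.8.

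Across the whole gap, mean H3K36me2 went from 183 to 51.3, 3.56-fold lower (3.45 to 3.69), against 7.62-fold on the centromeric flank and 18.3-fold on the distal flank. Mean H3K27me3 went from 10.7 to 32.7, 3.06-fold higher (2.87 to 3.27), against 1.32-fold and 1.40-fold on the flanks. Scaled to library totals, the gap had ratios of 2.65 for H3K36me2 and 1.22 for H3K27me3, with flanks at 1.24 and 0.517 and at 0.526 and 0.555. By the rule of size, 12 of its 17 bins were lower in H3K36me2 and 11 were higher in H3K27me3, with 2 below the level filter for H3K27me3. The background was 90.8% lower and 61.6% higher on the rest of X, and 89.8% and 70.1% over all bins, so the count of risen bins was near it. The choice of bins with low H3K27me3 in WT favours a high ratio for that mark. The stretch was also named with its H3K36me2 in K36M known, so the ratios of both marks are descriptive. The gap held 10 of the 20 window bins with the lowest WT H3K27me3. Its limits were set on those values, so this count follows in part from the choice.

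**Figure D5:**
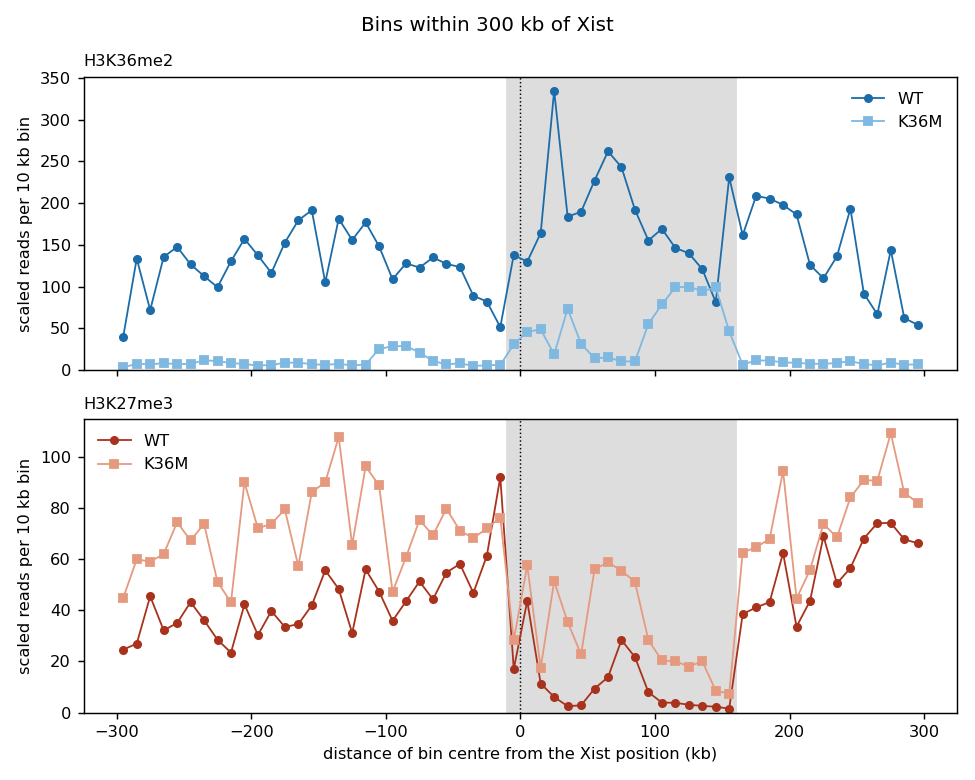
H3K36me2 (top) and H3K27me3 (bottom) in scaled reads per 10 kb bin within 300 kb of the Xist position (dotted line), in WT and K36M; the grey band is the gap of 170 kb. H3K27me3 in WT drops from 92.0 to 17.0 scaled reads at the left edge and rises from 1.53 to 38.5 at the right edge, and H3K36me2 in K36M is high over the right part of the band.

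A second stretch of the same kind lay about 1.6 Mb distal to Xist, from 102220001 to 102330000. Of the 14 runs of H3K36me2 in K36M, these were the only 2 that held runs of low H3K27me3 in WT, at least 3 bins at or below the 25th percentile of the rest of X, and they held all 18 such bins of the window. This threshold was added after the values were seen. In the distal stretch H3K36me2 went from a mean of 118 to 66.0, 1.78-fold lower (1.70 to 1.87), against 7.44-fold and 8.13-fold in the 100 kb on either side. H3K27me3 went from 4.78 to 16.3, against flanks at 48.4 and 59.5 in WT and at 58.9 and 74.0 in K36M. Its mean WT H3K36me2 stood above both flanks, which held 40.7 and 48.0. The bin at 102280001 to 102290000 had the highest H3K36me2 of the window in K36M, 110, against 84.6 in WT, and the lowest H3K27me3 of the window in WT, 1.20 (11 reads), with 7.38 in K36M. At 102250001 to 102260000 H3K36me2 was 81.4 in WT and 99.5 in K36M. At 102270001 to 102280000 H3K27me3 went from 1.74 to 17.1, next in log2 ratio (2.47) after the pair at Xist, from 16 reads in WT.

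The other 12 runs of H3K36me2 in K36M did not lie in gaps of H3K27me3: their mean H3K27me3 in WT ran from 27.4 to 71.4 scaled reads per bin, all above the median of 16.5 on the rest of X. Their mean H3K36me2 in K36M ran from 8.39 to 39.2, so the lowest were near the threshold of 6.71. One of them, from 100830001 to 100920000 with a mean of 9.13, lay in the distal flank of the gap at Xist. The longest of all, 370 kb from 99530001 to 99900000, held 113 in WT and 28.5 in K36M, with H3K27me3 at 37.9 and 73.1. Those of 140 kb from 98750001 and of 120 kb from 101140001 held 39.2 and 22.5 in K36M. Both contained bins in which K36M was at or above WT. At 98840001 to 98850000 H3K36me2 was 42.6 in WT and 61.2 in K36M, the largest H3K36me2 log2 ratio of the window (0.38), and at 101160001 to 101170000 it was 52.2 and 70.4 (0.33). H3K27me3 in these bins was 27.6 and 30.6 in WT and 45.7 and 44.3 in K36M. In all, 9 of 388 bins (2.32%) had H3K36me2 in K36M at or above WT, close to the 1.68% of the rest of X and 2.18% over all bins, and none reached 2-fold.

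The marks were related differently inside the window than across the pooled bins of the rest of X. Spearman's rho between H3K36me2 and H3K27me3 across bins was -0.26 in WT and -0.11 in K36M in the window, against 0.62 and 0.61 across the 15151 bins of the rest of X. Among the stretches of 4 Mb, the window had the lowest rho in K36M, others running from 0.06 to 0.92, and the second lowest in WT, others running from -0.41 to 0.91. The other 40 had a median rho of 0.53 in WT and 0.51 in K36M. The pooled values take in stretches near the floor for both marks, such as that from 26700001. There the WT medians were 1.27 for H3K36me2 and 0.382 for H3K27me3, and rho in WT was 0.69. In the stretches beside the window, from 94700001 and from 102700001, rho was 0.01 and 0.34 in WT and 0.26 and 0.42 in K36M. The part of low coverage in the pooled values was not tested. Without the 17 bins of the gap at Xist, a comparison added after the values were seen, rho was -0.20 in WT and -0.01 in K36M, so the K36M value rested on those bins. In the central 2 Mb of the window rho was -0.45 in WT and -0.33 in K36M. Between the lines, bins of the window kept their order more for H3K27me3 (rho 0.79) than for H3K36me2 (0.55). This was not particular to the window: the values were 0.90 and 0.74 on the rest of X and 0.72 and 0.60 over all bins. Neighbouring bins share domains and a library, so these values describe the libraries and carry no p-value.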

How the data were processed

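The deposited table gives 1 signal value per genomic interval for H3K36me2 and H3K27me3 in WT and K36M, as made by the authors. Per the labels' protocols, chromatin was digested with micrococcal nuclease, Drosophila S2 chromatin equal to 5% of the mouse chromatin was added, and libraries followed a TruSeq protocol; another label states an equal mix of cells, and which was used is not settled. The submitters' processing notes name Bowtie 1.0.0 and the genome builds mm9 (mouse) and dm6 (fly). Read filters and counting steps were not given in the sources used here. All values (100%) were multiples of 1 factor per library (0.636, 0.078, 0.109 and 0.295 scaled reads), with a tolerance of 0.01 read, and dividing by it gave the reads. This factor is assumed to hold the spike-in normalization, and an error in it would multiply every bin of its library. Inputs were not analysed here; their titles name H3.3 and their genotypes H3.1.

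Of 253926 intervals, 4659 not 10 kb wide, 6 of them in the window, and 322 without signal were left out, which left 248945 bins. The window comes from the stated positions. Ratios carry 95% intervals from the binomial split of reads (Wilson). Pseudocounts are the 5th percentile of WT values above 0 over all bins. Regions named are the 4 longest runs of at least 5 bins per library, the 3 highest bins per library, the 3 highest and lowest log2 ratios per mark, bins within 100 kb of Xist and segments of 200 kb. The members and lists were chosen with earlier results of these data known. The rule of size was tested on simulated data with known changes in a small part of the bins. The simulation used the same factor for both lines and no overall shift. It therefore does not test the rule under the shifts and unequal factors of these libraries. Software was scipy 1.17.1, pandas 2.3.3, numpy 2.4.6 and matplotlib 3.10.9 in Python 3.11.15.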

Additional observations from a re-analysis of the deposited data

How the results depend on the processing

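No paired analysis was possible because each group had 1 library. Leaving out the stretch at Xist and leaving out bins with few reads were chosen after the values were seen. Window over rest of X, in the order H3K36me2 in WT and K36M and H3K27me3 in WT and K36M, was 2.38, 1.39, 2.45 and 1.65 from medians, 1.39, 1.83, 2.34 and 1.78 for the central 2 Mb, 1.47, 1.98, 2.22 and 1.73 after subtracting the 5th percentile, and 1.22, 1.52, 1.91 and 1.48 without bins with few reads. With wide intervals it was 1.41 for H3K36me2 in WT and 2.16 and 1.66 for H3K27me3. Against autosomes the ratio of means reversed for H3K36me2, to 0.662 and 0.964, and was 3.23 and 2.03 for H3K27me3. K36M over WT was 0.0812 and 1.65 from medians, reversed to 1.45 and 0.639 with library totals, and was 0.156 and 1.51 after subtraction and 0.142 and 1.59 without the stretch at Xist; for H3K36me2 in the central 2 Mb it was 0.161. Bins lower in H3K36me2 numbered 130 with the median as pseudocount (36.7%, rest of X 40.4%), 47 with library totals (13.7%, rest of X 26.2%) and 64 centred (18.1%, rest of X 27.2%). Bins higher in H3K36me2 numbered 61 with library totals (17.7%, rest of X 13.1%) and 25 centred (7.06%, rest of X 6.07%). With the median as pseudocount, library totals and centring, bins higher in H3K27me3 numbered 48, 5 and 2. They numbered 226 with the 1.5-fold rule and 45 with 5 bins averaged. Bins lower in H3K27me3 numbered 39 with library totals and 162 centred. The share of lower bins was 10.4% in the window and 3.77% on the rest of X with library totals, and 42.9% and 13.4% when centred. Pearson's r on the log2 scale in K36M was -0.45. Over 12 results and 66 alternative values, 21 moved by less than the spread (or 1.5-fold for counts), 41 by more, and 4 changed direction. The spread was not 1 measure. Ratios just outside their narrow counting interval counted as moved, whereas rho in WT going from -0.26 to -0.45 did not. Bins with fewer than about 20 reads limit ratios in both H3K27me3 gaps.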

Other observations

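The highest H3K27me3 of the window in WT, 201 and 187 scaled reads per bin, lay at 100000001 to 100010000 and at 100040001 to 100050000, inside the longest H3K27me3 domain, and the same bins were highest in K36M, at 306 and 282. H3K36me2 was also raised there over the next bins of the domain, at 102 in both bins in WT and at 15.9 and 18.1 in K36M, so these bins stood out in all 4 libraries. The part of this in the H3K27me3 level was not tested. At the other end, the bin at 101360001 to 101370000 was low in all 4 libraries, at 14.0 and 1.79 for H3K36me2 and 12.5 and 13.6 for H3K27me3.

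The 6 intervals of 20 kb left out of the window held values per 10 kb within the range of its bins, from 43.2 to 308 for H3K36me2 in WT and from 26.3 to 80.4 for H3K27me3 in WT.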
